A study of Mus musculus with 2 samples.

Results

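The genes of the DNA replication machinery were followed through the cell classes of the mouse dentate gyrus, a part of the hippocampus where granule neurons go on being made in young and adult animals. The 46 genes were chosen by name, from origin licensing to histone supply, and all 46 were found by symbol among the 32285 genes of the count table. The data came from droplet single-cell RNA sequencing at postnatal day 30 in 2 samples. The control was Nestin-Cre Tg, Phf2+/+ and the conditional knockout (cKO) was Nestin-Cre Tg, Phf2flox/flox. Each genotype was represented by 4 mice but by a single library, so mice of a genotype cannot be told apart. Both groups carried the Nes-cre transgene of the strain B6.Cg-Tg(Nes-cre)1Kln/J, whose Nestin promoter drives Cre in neural progenitors and their progeny, so a control without Cre was not part of the comparison. A barcode suffix, 1 or 2, separates the libraries, and the sources used here tie neither suffix to a genotype. The values below therefore come first for library 1 and then for library 2, without a comparison of the genotypes.

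Replication begins at origins that are marked by the origin recognition complex and licensed when Cdc6 and Cdt1 load the ring-shaped MCM2-7 helicase. Cdc45 and the GINS complex then turn MCM2-7 into the active helicase, RPA coats the single strands, the clamp loader RFC places the sliding clamp PCNA, and polymerases alpha, delta and epsilon copy the strands. Many of these genes are known targets of E2F transcription factors, which are released at the start of S phase, and in the dentate gyrus dividing cells are mainly the progenitors between radial glia-like stem cells and neuroblasts.

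Promoter sequences were compared first, because the E2F site is the letter pattern that many of these genes are known to share. RefSeq promoters (GRCm38.p6, 250 bases before to 50 after the start) were found for 37 of the 46 genes. The letters TTTCCCGC, TTTCGCGC, TTTGGCGC or TTTGCCGC, on either strand and allowing overlap with each other, occurred in 14 of these 37 genes (37.8%) and in 2.60% of the 27025 genes of the promoter table. Upstream sequences are printed for 2 helicase genes with such letters that persisted in no class by the limit used further on (Mcm6 at chr1:128359706-128359955, minus strand, and Mcm5 at chr8:75109259-75109508, plus strand) and for 2 without them that persisted in at least 1 class (Rfc1 at chr5:65335671-65335889, minus strand, and Slbp at chr5:33652575-33652824, minus strand). Capitals mark the E2F letters, and each sequence runs 5′ to 3′ on the gene's strand and ends before the annotated gene.
Mcm6: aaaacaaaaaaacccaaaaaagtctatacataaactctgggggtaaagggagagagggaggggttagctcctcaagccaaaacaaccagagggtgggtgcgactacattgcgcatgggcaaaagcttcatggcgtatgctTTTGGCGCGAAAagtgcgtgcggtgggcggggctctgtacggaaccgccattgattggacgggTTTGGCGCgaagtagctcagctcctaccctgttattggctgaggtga
Mcm5: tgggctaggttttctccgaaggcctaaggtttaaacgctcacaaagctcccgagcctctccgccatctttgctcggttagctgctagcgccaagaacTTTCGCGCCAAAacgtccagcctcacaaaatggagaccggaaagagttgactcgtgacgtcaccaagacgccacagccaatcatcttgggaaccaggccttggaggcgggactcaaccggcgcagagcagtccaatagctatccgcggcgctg
Rfc1: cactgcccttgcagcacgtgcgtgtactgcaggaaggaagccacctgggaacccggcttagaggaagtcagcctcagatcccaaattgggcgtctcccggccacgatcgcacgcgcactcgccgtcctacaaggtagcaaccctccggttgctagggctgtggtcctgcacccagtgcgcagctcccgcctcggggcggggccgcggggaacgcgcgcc
Slbp: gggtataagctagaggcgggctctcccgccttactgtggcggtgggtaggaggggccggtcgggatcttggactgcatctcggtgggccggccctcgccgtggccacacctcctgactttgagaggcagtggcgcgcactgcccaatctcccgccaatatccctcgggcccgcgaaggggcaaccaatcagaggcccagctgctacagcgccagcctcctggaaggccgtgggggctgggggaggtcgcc
In Mcm6 the pattern occurred 3 times, of which 2 overlap, and in Mcm5 2 overlapping times. The Rfc1 window holds 219 bases, since 31 bases next to the start belong to the annotated gene. A match describes letters and is not a measured binding site, and no match says only that these letters are not in the window. The printed genes were picked by letters and persistence together, and other genes went the other way. Mcm7 and Rfc3 held such letters and persisted in at least 1 class, while Mcm2 and Rrm2 held none and persisted in no class.

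After filtering, 8029 cells of library 1 (median 8092 UMIs, the unique molecular identifiers that count captured transcripts) and 8129 cells of library 2 (median 7232 UMIs) remained, and 22 barcode sequences occurred in both libraries. Clusters were formed without the 46 genes and without 45 other replication genes, and were named from marker lists that hold none of them. Of 32 clusters 2 stayed unnamed and entered no comparison, with 2.49% of the cells of library 1 and 1.77% of library 2. A further one, cluster 0, scored highest for neuronal intermediate progenitors, but its 10 leading genes held 3 Neuroblast markers (Tubb3, Igfbpl1, Dcx) and 2 of its own (Tac2, Eomes), so it is called by its number. Granule neuron-like cells scored 3.29 for granule neurons and 2.80 for pyramidal or mossy neurons. Their leading genes held 1 marker of each (Calb1 and Nrgn), so that name is less certain. S-phase-like cells (120 in each library) had 16 of the S-phase markers in at least 25% of cells and were led by Ccnd2, Gpd1 and Hells. G2/M-like cells (220 and 218) were led by Top2a, Hist1h1b and Cenpf. They also held 18 S-phase markers and had the higher S-phase score (2.55, against 2.13 in S-phase-like cells), with summed S-phase markers at 1843 and 1846 CPM against 1528 and 1701 CPM. The class called S-phase-like is thus the one with few G2/M markers and not the one with the most S-phase markers, and it is the reference of every percentage below. The other 17 classes, cluster 0 among them, are called classes without division, meaning outside these dividing classes. Some of their cells held cell cycle markers. With cells thinned to 1000 UMIs, at least 2 S-phase marker UMIs were present in 4% and 3.57% of OPC-like (oligodendrocyte precursor) and 1.69% and 2.07% of Neuroblast-like cells. In cluster 0 the shares were 1.59% and 0.909%, and in S-phase-like cells 33.3% and 35.8%. Levels are UMIs of a gene per 1000000 UMIs summed over a library's cells of a class (CPM), and their intervals cover counting error only.

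Replication transcripts were concentrated in the dividing classes. Summed over the 46 genes they reached 6109 CPM in library 1 and 6451 CPM in library 2 in S-phase-like cells, and 5577 and 5429 CPM in G2/M-like cells. The next levels were those of OPC-like cells (oligodendrocyte precursors; 1163 and 1116 CPM), Cajal-Retzius-like cells (early-born neurons that no longer divide; 1056 and 1041), cluster 0 (1038 and 1003), Neuroblast-like cells (984 and 1005) and RGL-like cells (radial glia-like stem cells; 755 and 715). The remaining 12 classes lay between 340 CPM in Erythroid-like cells of library 1 and 651 CPM in BAM-like cells (border-associated macrophages) of library 2. The libraries kept both dividing classes far above the others, while neighbours such as Cajal-Retzius-like cells and cluster 0 overlapped in their intervals. Free RNA, from barcodes under 100 UMIs, held 707 and 699 CPM of these transcripts, but it made up at most 2.39% of the RNA of any reported class.

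**Figure D1:**
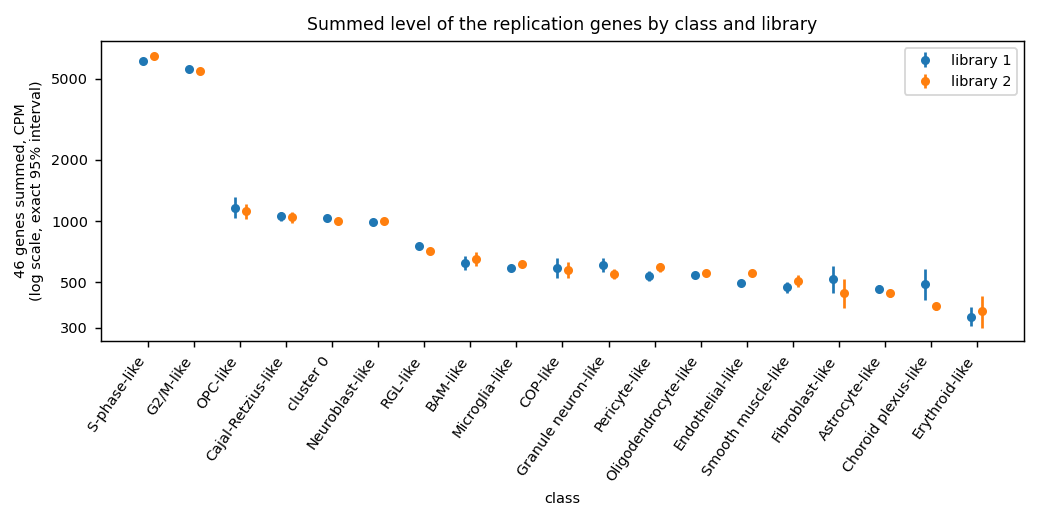
Summed level of the 46 replication genes by class, in CPM on a log axis, with exact Poisson 95% intervals; points are the 2 libraries. S-phase-like and G2/M-like cells lie at 5429 CPM or more in both libraries, and the highest of the other classes, OPC-like cells, at 1163 CPM.

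Per cell, with every cell thinned to 1000 UMIs, 4.84 and 5.06 of the 46 genes were detected in an S-phase-like cell, against 1.03 and 1.03 in a Neuroblast-like, 0.757 and 0.736 in an RGL-like and 0.479 and 0.468 in an Astrocyte-like cell. At least 1 of the 46 was detected in 95.8% of S-phase-like cells of library 1 (exact Clopper-Pearson 95% interval 90.5 to 98.6) and in 91.7% (85.2 to 95.9) of library 2. The shares were 61.4% and 62.7% in Neuroblast-like, 52.0% and 48.9% in RGL-like and 38.5% and 38.4% in Astrocyte-like cells. Choroid plexus-like cells, an epithelium that hardly divides, gave 37.9% (20.7 to 57.7) and 30.4% (25.5 to 35.6) at median depths of 4729 and 9923 UMIs, and the Astrocyte-like intervals (35.4 to 41.8 and 35.3 to 41.6) overlapped these. Without thinning the shares were 100% in S-phase-like, 94.9% and 95.5% in Neuroblast-like, 91.4% and 91.7% in RGL-like and 78.7% and 81.2% in Astrocyte-like cells, at median depths of 15246 and 13152, 8498 and 7141, 6703 and 6336, and 4698 and 5033 UMIs.

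Among the 17 classes without division, 42 of the 46 genes were higher in S-phase-like cells than in each class by edgeR's quasi-likelihood test (Benjamini-Hochberg adjusted over 15438 genes, threshold 0.05). Of all genes tested, the share higher in S-phase-like cells was 14.7% against Erythroid-like, 14.9% against OPC-like, 18.2% against Fibroblast-like, 19.0% against cluster 0, 20.3% against COP-like (committed oligodendrocyte precursor) and 20.6% against RGL-like cells. It was 22.0% against Neuroblast-like, 24.2% against Cajal-Retzius-like, 25.7% against Astrocyte-like, 28.5% against Smooth muscle-like, 28.6% against Choroid plexus-like and 29.3% against Granule neuron-like cells. It was 30.0% against Pericyte-like, 30.3% against BAM-like, 30.7% against Oligodendrocyte-like, 31.9% against Endothelial-like and 32.9% against Microglia-like cells, and the median difference of the 46 genes ran from 2.77 (cluster 0) to 4.37 (Granule neuron-like) on the log2 scale. The 4 exceptions were Orc1, Gins4, Rpa1 and Rfc1. Orc1, the largest subunit of the origin recognition complex, had only 11 and 12 UMIs in S-phase-like cells and was called against 13 of 17 classes. Gins4, a subunit of the GINS complex, was not called against Oligodendrocyte-like cells, where it stood at 51.9 and 50.1 CPM beside 66.4 and 69.6 CPM in S-phase-like cells. Rpa1, the large subunit of the single-strand binding protein RPA, stood at 59.96 and 62.8 CPM in S-phase-like cells. It was not called against Choroid plexus-like cells (37.7 and 27.4 CPM) or Smooth muscle-like cells (44.1 and 28.8 CPM). The Choroid plexus-like value of library 1 rests on 10 UMIs in 29 cells. Rfc1, the large subunit of the clamp loader, was lower in S-phase-like cells (185 and 188 CPM) than in Cajal-Retzius-like cells (250 and 231 CPM), with an edgeR adjusted p of 0.0317 and 19.9% of all genes tested lower in that comparison. With total counts in place of TMM scaling (trimmed mean of M-values, the scaling of the test) 44 of the 46 genes were higher in every class.

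**Figure D2:**
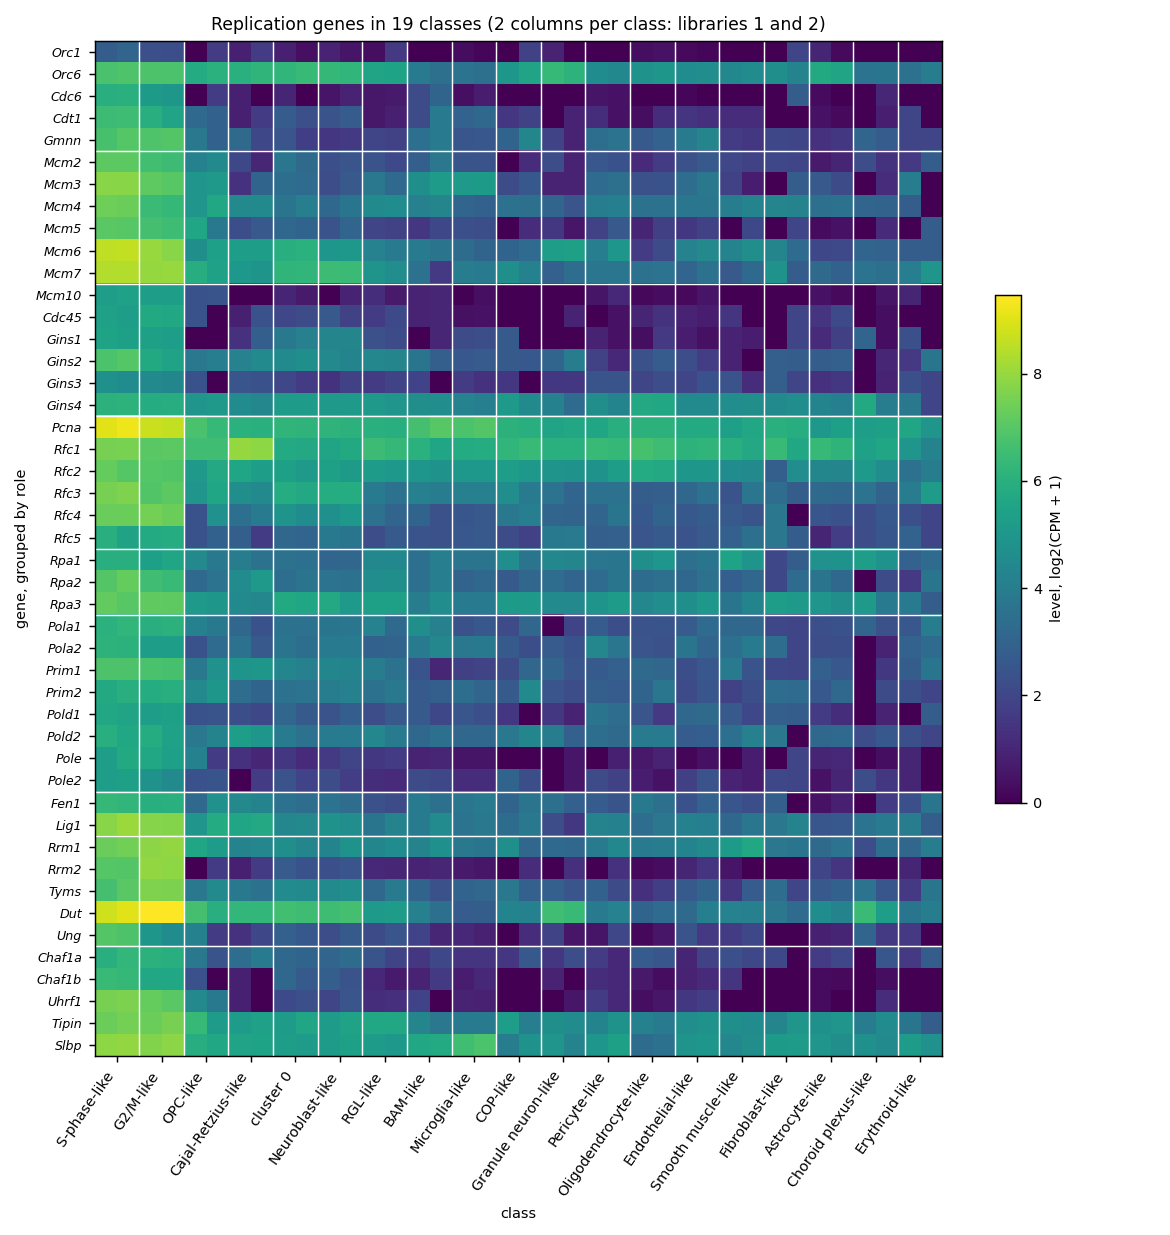
Level of each of the 46 genes, log2(CPM + 1), in 19 classes with 2 columns per class for libraries 1 and 2; rows are grouped by role. The S-phase-like and G2/M-like columns are bright for nearly all genes, and Pcna, Rfc1, Gins4 and Orc6 are among those that stay visible in most other classes. Over the 17 classes without division together, Pcna stood at 75.3 CPM, Rfc1 at 68.8, Slbp at 50.6, Rfc2 at 33.5, Orc6 at 31.2 and Gins4 at 24.8. These pooled levels weight each class by its UMIs, so Microglia-like cells, the highest class of Pcna and Slbp relative to S-phase-like cells, count most.

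Against Neuroblast-like cells, the postmitotic progeny in the granule neuron lineage, all 46 genes were higher in S-phase-like cells, where 22.0% of all genes tested were higher and 18.7% lower. The median difference was 2.90 on the log2 scale for the 46 genes and 0.01 for all genes tested. Mcm2, a helicase subunit, stood at 134 and 134 CPM in S-phase-like and at 3.92 and 4.59 CPM in Neuroblast-like cells (log2 difference 4.87 ± 0.19 SE, edgeR adjusted p = 4.87e-20). Gmnn, which encodes the licensing inhibitor geminin, stood at 105 and 126 CPM against 1.84 and 2.06 CPM (5.75 ± 0.23, edgeR adjusted p = 4.87e-20). The libraries of the 2 classes did not overlap for either gene, which is no separate support because both were picked by adjusted p. Mcm3 (5.50 ± 0.22) and Pcna, the sliding clamp (2.93 ± 0.12), followed. At the other end, Orc6, the smallest subunit of the origin recognition complex, differed by 0.44 and stood at 79.0 and 74.1 CPM in Neuroblast-like cells, beside 107 and 117 CPM in S-phase-like cells. Gins4 differed by 0.94 and Gins1 by 1.06.

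Which transcripts stayed outside S phase was described by 1 limit: a gene persisted in a class where its CPM was at least 25% of the S-phase-like CPM in both libraries and its lower 95% bound was above what free RNA could give. By this limit 14 of the 46 genes persisted in at least 1 of the 17 classes, 32 in none, and 0 in all of them. The limit was applied to the 46 genes only, so these counts cannot be set beside a share of all genes. Rfc1 persisted in 13 classes, Gins4 in 12 and Orc6 in 9. Next came Rpa1 in 6, Rfc2 in 5 and Rpa3 in 4 classes, Rfc2 being a small clamp loader subunit and Rpa3 the smallest subunit of RPA. Pold2 (polymerase delta), Prim2 (primase), Rfc3 and Gins1 persisted in 2 classes each, and Mcm7, Prim1, Tipin and Slbp in 1 each.

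By role, 3 of the 6 clamp and clamp loader genes, 2 of the 3 RPA genes, 3 of the 8 polymerase and primase genes, 2 of the 6 helicase activation genes and 2 of the 5 chromatin and fork protection genes persisted somewhere. Only 1 of the 5 licensing genes and 1 of the 6 MCM2-7 genes did, and neither the 2 genes of Okazaki fragment maturation (Fen1, Lig1) nor the 5 of nucleotide supply and uracil removal (Rrm1, Rrm2, Tyms, Dut, Ung) reached the limit in any class. With the limit at 50%, 4 genes persisted in at least 1 class, and with the limit at 10%, 38 did. With TMM-scaled CPM (chosen after seeing the data) 17 genes persisted: Pcna and Pola2 then persisted in 2 classes each, Pola1 and the nucleotide supply gene Rrm1 in 1 each, and Prim1 in none. The same scaling took Rfc1 from 13 to 16 classes, Gins4 from 12 to 15 and Orc6 from 9 to 11. It took Rpa1 from 6 to 7, Rpa3 from 4 to 5, Rfc2 from 5 to 9, Pold2 from 2 to 4 and Slbp from 1 to 2.

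**Figure D3:**
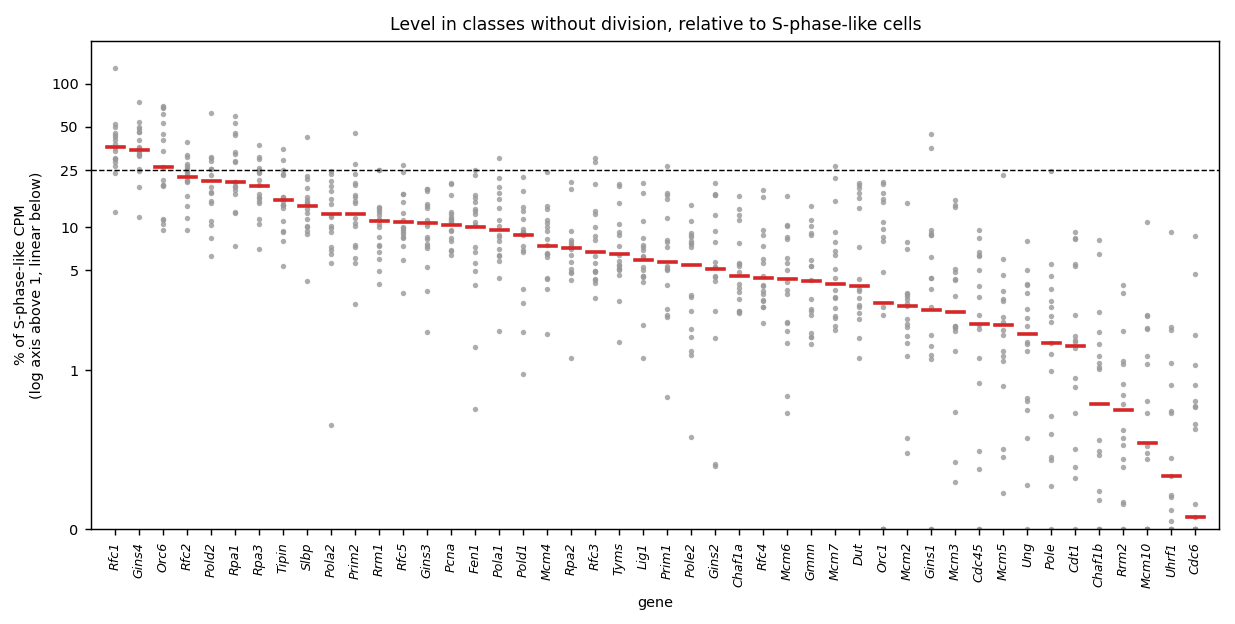
Level of each gene in the 17 classes without division as a percent of its S-phase-like CPM (mean of the 2 libraries per class, grey points), with the median over classes in red and the 25% limit dashed; the axis is logarithmic above 1% and linear below. Rfc1, Gins4 and Orc6 have medians above the limit, and Cdc6 and Uhrf1 have medians under 0.5%.

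The gene that kept the largest part of its level was Rfc1 (chr5:65261850-65335670, mm10), with a median of 36.1% of the S-phase-like CPM over the 17 classes. It ranged from 12.7% in Erythroid-like to 129% in Cajal-Retzius-like cells. In Oligodendrocyte-like cells it stood at 104 and 90.8 CPM, in RGL-like cells at 89.6 and 78.0, in Microglia-like cells at 56.5 and 56.9 and in Neuroblast-like cells at 45.4 and 53.7. At 1000 UMIs per cell it was detected in 13.3% and 21.7% of S-phase-like, 10.7% and 9.21% of Oligodendrocyte-like and 2.15% and 3.51% of Erythroid-like cells. The promoter of Rfc1 printed above held none of the E2F letters. Pcna stood higher than Rfc1 in CPM over the 17 classes together (75.3 against 68.8), but at a median of 10.3% of its S-phase-like CPM. That pooled level weights each class by its UMIs, of which Microglia-like cells had the most (24976222 and 18437120). Pcna was also highest there, at a mean of 20.2% of its S-phase-like CPM.

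Gins4 (chr8:23226616-23237659) kept a median of 34.3% and was highest in Oligodendrocyte-like cells. It also stood at 37.0 and 36.8 CPM in cluster 0, 33.2 and 32.8 in Neuroblast-like and 32.8 and 29.3 in RGL-like cells. The other GINS genes did not share this pattern of levels. Gins1 stood at 18.9 and 19.04 CPM in Neuroblast-like and 13.3 and 16.6 in cluster 0, next to 44.4 and 40.4 in S-phase-like cells, but had 0 UMIs in the Granule neuron-like and OPC-like cells of both libraries. Gins2 and Gins3 persisted in no class. Orc6 (chr8:85299632-85308278) kept a median of 26.2%, with 75.0 and 82.0 CPM in cluster 0 and 81.4 and 69.0 CPM in Granule neuron-like cells. In Microglia-like cells it stood at 11.1 and 10.2 CPM, far under both of these classes in both libraries. Orc6 overlaps Vps35 on the opposite strand, and whether the counting used strand is unknown from the sources read. Rfc2 kept 22.5% and Pold2 20.9%.

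Other genes persisted in a narrow set of classes. Slbp, which binds the stem-loop of histone mRNAs, stood at 92.8 and 111 CPM in Microglia-like cells against 233 and 244 CPM in S-phase-like cells, and at 9.10 and 10.8 CPM in Oligodendrocyte-like cells. Prim1, the catalytic primase subunit, stood at 28.9 and 31.4 CPM in Cajal-Retzius-like cells against 113 and 114 CPM in S-phase-like cells, just inside the limit, and with TMM-scaled CPM its shares there were 24.8% and 27.3%, which ends its persistence. Tipin, a fork protection factor, persisted in RGL-like cells at 49.8 and 50.2 CPM beside 161 and 179 CPM. Mcm7 was the one MCM2-7 gene that persisted, in Neuroblast-like cells at 90.1 and 87.4 CPM beside 336 and 332 CPM, and it overlaps Cops6 and Ap4m1 on the opposite strand. Rfc3 stood at 57.6 and 58.0 CPM in Neuroblast-like cells and at 6.02 and 6.22 CPM in Oligodendrocyte-like cells, with 183 and 199 CPM in S-phase-like cells. Neuroblast-like cells held 8 persisting genes, cluster 0 and RGL-like cells 7 each, Cajal-Retzius-like cells 6, Oligodendrocyte-like cells 5 and Erythroid-like cells 0.

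The lowest medians outside division were those of Cdc6, Uhrf1, Mcm10, Rrm2 and Chaf1b, at 0.0778%, 0.335%, 0.546%, 0.750% and 0.789% of their S-phase-like CPM. Cdc6, which loads MCM2-7 at origins (chr11:98907801-98923940), gave 62 UMIs in all 15136 cells of the 17 classes and 0 UMIs in 5 of them, against 116 and 102 UMIs in 120 S-phase-like cells per library. Uhrf1, which brings the maintenance DNA methyltransferase to replicated DNA, stood at 182 and 196 CPM in S-phase-like cells, at 2.99 and 4.59 CPM in Neuroblast-like cells and at 1.35 and 1.41 CPM in RGL-like cells. Mcm10 stood at 39.1 and 41.7 CPM in S-phase-like cells and gave 51 UMIs in the 17 classes together. Rrm2, the regulated subunit of ribonucleotide reductase, stood at 125 and 122 CPM, and Chaf1b, a subunit of chromatin assembly factor 1, at 83.5 and 79.0 CPM. Of the 37 genes with a promoter sequence, E2F letters were present in 2 of the 9 that persisted in a class (Mcm7, Rfc3). They were present in 12 of the 28 that persisted in none. A link between the letters and persistence was not tested.

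Within dividing cells, the test of S-phase-like against G2/M-like cells called few genes. Higher in S-phase-like cells were 8 of 46 (4.26% of all genes tested) and lower were 4 (7.31%), with a median difference of 0.04 for the 46 genes. Ung, the uracil-DNA glycosylase, stood at 121 and 113 CPM against 31.6 and 23.6 CPM (log2 difference 1.90 ± 0.26 SE, edgeR adjusted p = 1.40e-06). Gins2 (1.10 ± 0.16), Mcm4 (0.80 ± 0.12) and Mcm6 (0.48 ± 0.12) were higher as well. The 4 lower genes, a share near that of all genes tested, were Rrm2, Tyms, Dut and Rrm1, listed with Ung under nucleotide supply and uracil removal. Of 9 other nucleotide supply genes, 2 were higher and 0 lower. Rrm2 stood at 125 and 122 CPM in S-phase-like and 244 and 230 CPM in G2/M-like cells (-1.13 ± 0.13, edgeR adjusted p = 3.23e-08), Tyms, thymidylate synthase, differed by -0.93 ± 0.14, Dut, the dUTPase, by -0.75 ± 0.12 and Rrm1 by -0.68 ± 0.13. With total counts in place of TMM, which moved the median of all genes by 0.19, 17 genes were higher, and without the library term 5 were.

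The G2/M-like class was not uniform, so 3 clusters of dividing cells were taken from a finer clustering, chosen after these values had been seen. They are not a split of the S-phase-like and G2/M-like classes, since together they held somewhat more cells. The early cluster (141 and 120 cells) had Gpd1 and Hells among its leading genes, the intermediate cluster (108 and 133 cells) was led by replication-dependent histone genes such as Hist1h1b, and the G2/M cluster (115 and 87 cells) by Cenpf, Ube2c and Cenpa. Summed S-phase markers stood at 1366 and 1632 CPM in the early, 2942 and 2621 in the intermediate and 631 and 612 in the G2/M cluster, and G2/M markers at 648 and 819, 9608 and 10528, and 13025 and 12177 CPM. The 46 genes together reached 5569 and 6266 CPM, 8596 and 7488 CPM, and 2258 and 2187 CPM in the same order. The intermediate cluster was the highest in both libraries and the G2/M cluster the lowest.

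**Figure D4:**
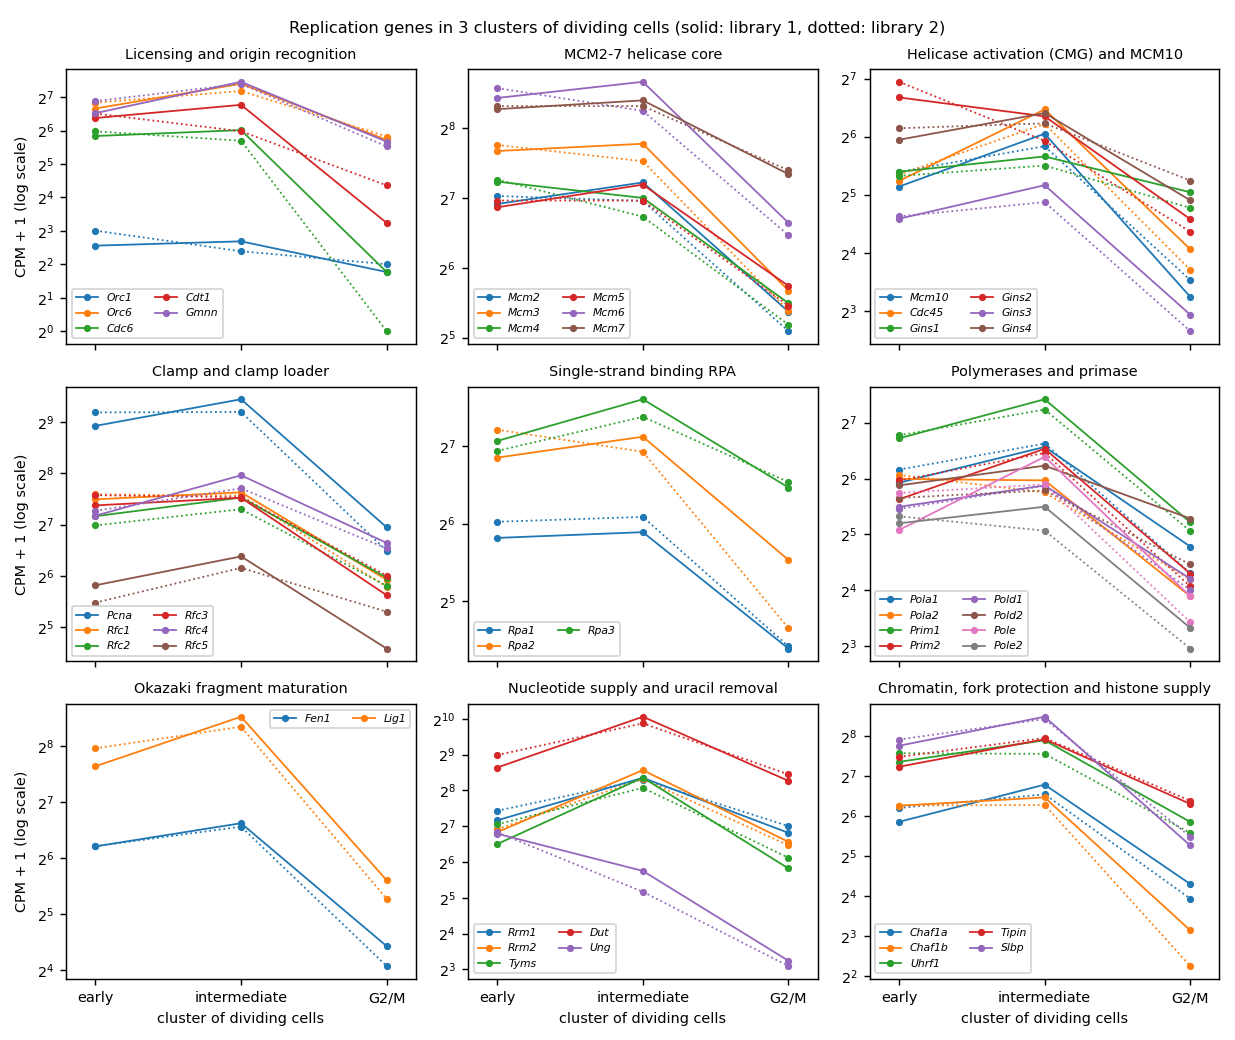
Level of each gene (CPM + 1, log axis) in the early, intermediate and G2/M clusters of dividing cells, in 9 panels by role; solid lines are library 1 and dotted lines library 2. Most lines peak in the intermediate cluster and fall to the G2/M cluster, and Ung falls from the early cluster on.

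Between the intermediate and the G2/M cluster, 44 of the 46 genes were lower in the G2/M cluster and 0 were higher, where 6.12% of all genes tested were lower and 3.12% higher there. Both clusters had been named G2/M by their markers, and the intermediate one was set apart by more and higher S-phase markers. The direction of these differences is thus not independent of how the clusters were labelled. Gins1 (difference 0.70 ± 0.33) and Orc1 (0.86 ± 0.73) were not called. Slbp stood at 355 and 341 CPM in the intermediate and 37.4 and 43.6 CPM in the G2/M cluster (3.13 ± 0.15 SE, edgeR adjusted p = 1.01e-17). Lig1, the ligase that joins Okazaki fragments, stood at 367 and 324 against 47.6 and 37.6 CPM (3.02 ± 0.17, edgeR adjusted p = 8.23e-16). Pcna stood at 696 and 586 against 122 and 88.8 CPM (2.61 ± 0.14, edgeR adjusted p = 1.00e-16), and Chaf1b differed by 3.80 ± 0.34. The smallest called differences were those of Mcm7 (161 and 167 CPM in the G2/M cluster, 1.02 ± 0.13) and Rpa3 (87.4 and 91.8 CPM, 1.03 ± 0.16).

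Between the early and the intermediate cluster, 24 of the 46 genes were higher in the intermediate cluster (10.5% of all genes tested) and 2 were higher in the early cluster (7.44%). Rrm2, Tyms, Dut and Rrm1 again had the smallest adjusted p. Rrm2 stood at 113 and 120 CPM in the early and 378 and 319 CPM in the intermediate cluster (-1.76 ± 0.13, edgeR adjusted p = 9.60e-13), and Tyms differed by -1.63 ± 0.15, Dut by -1.34 ± 0.13 and Rrm1 by -1.21 ± 0.13. The 2 genes of Okazaki fragment maturation, 4 of the 6 clamp genes and 4 of the 8 polymerase and primase genes were higher in the intermediate cluster too. None of the 6 MCM2-7 genes passed in either direction, with differences from -0.35 to 0.20. The 2 genes higher in the early cluster were Ung, at 110 and 113 CPM against 52.8 and 34.9 CPM (1.18 ± 0.27, edgeR adjusted p = 0.00130), and Gins2 (0.49 ± 0.17, edgeR adjusted p = 0.0365). In both libraries alike, 29 genes had their highest level in the intermediate cluster and 4 (Mcm4, Gins2, Pola2, Ung) in the early cluster. The early cluster was itself named by its S-phase markers. Between it and the G2/M cluster, 39 of 46 were higher in the early cluster (6.52% of all genes tested) and 0 were lower (7.50%). Rrm2, Dut and Rrm1, which the coarser classes showed as lower in S-phase-like cells, differed by 0.20 ± 0.16, 0.30 ± 0.13 and 0.24 ± 0.15 there and were not called, while Tyms was higher in the early cluster by 0.67 ± 0.20 (edgeR adjusted p = 0.0167).

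RGL-like cells held more replication transcripts than Astrocyte-like cells, the mature glia most like them. Higher were 21 of the 46 genes (15.3% of all genes tested) and lower were 3 (17.2%), and the median difference was 0.70 for the 46 genes against -0.0045 for all genes. All 6 MCM2-7 genes were higher, from 0.78 for Mcm4 to 2.79 for Mcm5, but Mcm2, Mcm3 and Mcm5 lost the call with a 10% limit on mitochondrial UMIs, and Mcm2, Mcm3 and Mcm4 when cells with cell cycle markers were left out. Mcm6 and Mcm7 kept it under both. Mcm6 stood at 17.5 and 14.3 CPM against 3.15 and 3.26 CPM (1.95 ± 0.30 SE), and Mcm7 at 28.8 and 23.9 against 8.67 and 6.71 CPM (1.43 ± 0.22). Gins2 (1.31 ± 0.25) and Lig1 (1.28 ± 0.26) followed, and Fen1, the flap endonuclease, was higher by 2.32, on 15 and 18 UMIs against 2 and 4. The Astrocyte-like level of Mcm5 was near the floor too, at a mean of 0.226% of its S-phase-like CPM. Uhrf1 was higher by 3.16, on 5 and 7 UMIs against 1 and 0, and lost its call under both settings. The libraries of the 2 classes did not overlap for Mcm6 or Mcm7, which is no separate support because both were picked by adjusted p. The RGL-like level of Mcm6 was far below that in S-phase-like cells (378 and 385 CPM).

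Lower in RGL-like cells were Rpa1 (20.4 and 20.3 against 26.8 and 27.4 CPM; -0.74 ± 0.17), Orc6 (-0.46 ± 0.12) and Rrm2 (4 and 5 UMIs against 15 and 9; -1.47 ± 0.56). With total counts, which moved the median of all genes by 0.33, the calls of Orc6 and Rrm2 were lost. That of Rrm2 was lost also with no filter on low counts, with the 10% mitochondrial limit, with at least 2000 UMIs per cell and without the cells with cell cycle markers. At 1000 UMIs per cell, at least 2 S-phase marker UMIs were present in 0.350% and 0.373% of the RGL-like class and in 0.218% and 0.431% of Astrocyte-like cells. When every cell with any UMI of an S-phase or G2/M marker was left out, the RGL-like class kept 48.0% and 54.7% of its cells and the Astrocyte-like class 71.1% and 73.6%, and 10 of the 21 higher calls were kept (Mcm5, Mcm6, Mcm7, Gins2, Rpa2, Pola1, Fen1, Lig1, Ung and Tipin). The calls of Mcm2, Mcm3, Mcm4, Gins4, Pcna, Rfc2, Rfc5, Prim1, Pold2, Rrm1 and Uhrf1 were lost. Median mitochondrial shares were 6.80% and 7.86% in RGL-like and 10.0% and 11.0% in Astrocyte-like cells, and with a limit of 10% on that share 12 genes were higher, without Mcm2, Mcm3, Mcm5, Pcna, Prim1, Pold2, Ung, Uhrf1 and Tipin. The part of mitochondrial share in the result was not tested further.

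**Figure D5:**
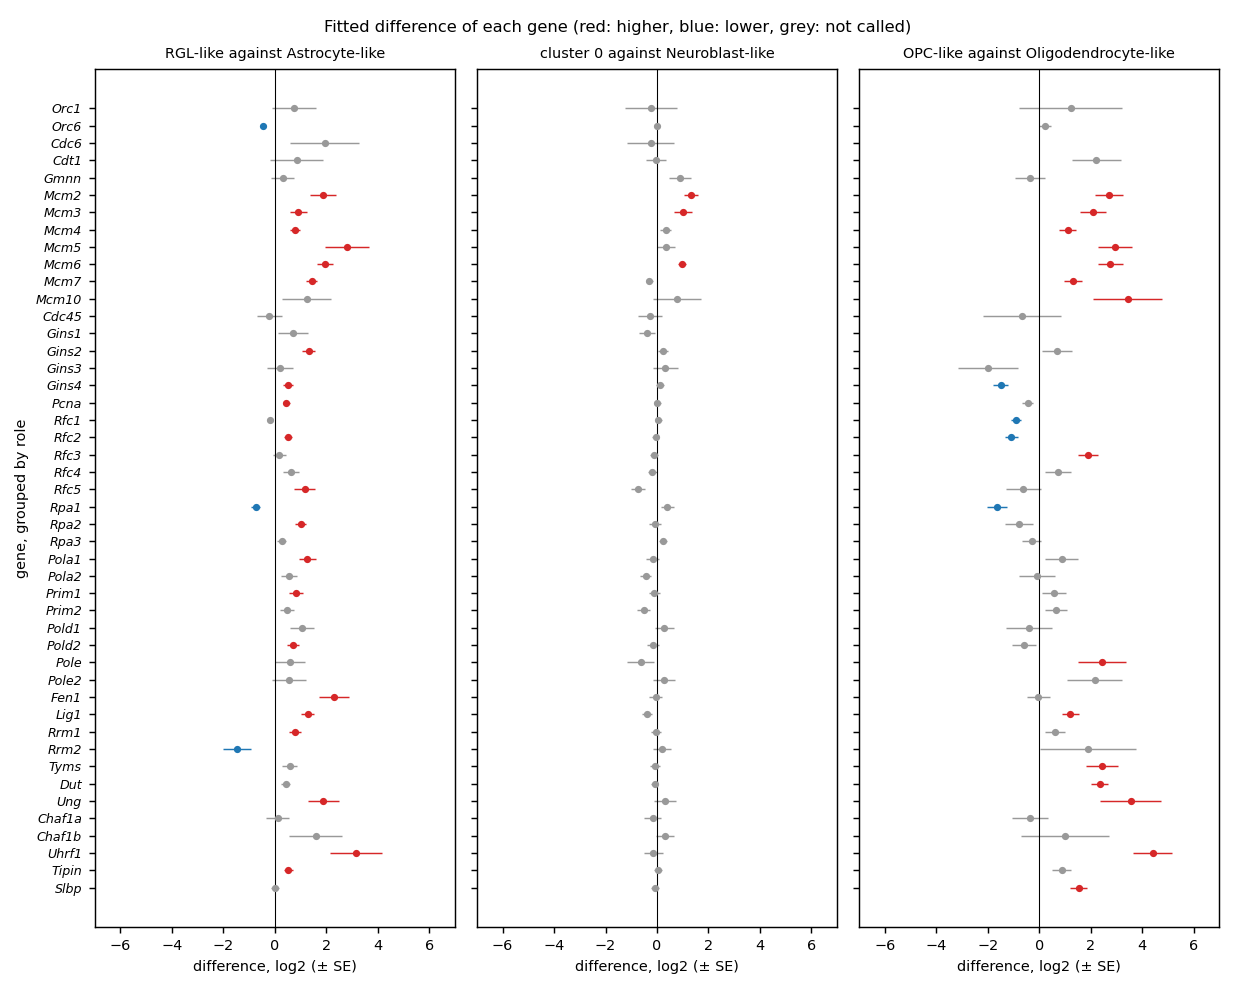
Fitted log2 difference of each gene with its standard error in 3 comparisons (RGL-like, cluster 0 and OPC-like, each against a second class); red points were higher, blue lower and grey not called. All 6 MCM2-7 genes are red for RGL-like and OPC-like cells and 3 of them for cluster 0; Cdc6 and Gins1 are left out of the OPC-like panel because 1 class held 0 UMIs.

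Cluster 0 differed from Neuroblast-like cells in 3 of the 46 genes, Mcm6, Mcm2 and Mcm3, all higher. That is about the share among all genes tested, of which 6.52% were higher and 7.09% lower. Mcm6 stood at 60.4 and 66.0 CPM against 30.2 and 32.3 CPM (0.97 ± 0.16 SE), Mcm2 at 12.3 and 8.74 against 3.92 and 4.59 CPM (1.31 ± 0.28, edgeR adjusted p = 8.54e-04) and Mcm3 at 9.64 and 9.04 against 3.69 and 5.28 CPM (1.02 ± 0.35, edgeR adjusted p = 0.0472). The libraries of the 2 classes did not overlap for any of the 3, which is no separate support because these genes were picked by adjusted p. Cluster 0 had 5 intermediate progenitor and 6 Neuroblast markers in at least 25% of cells, with scores of 2.52 and 2.42. At the finer clustering, where the leading genes of the corresponding cluster held 3 intermediate progenitor and 2 Neuroblast markers, 7 genes were higher, Mcm2, Mcm3, Mcm5, Mcm6, Gmnn, Uhrf1 and Rpa3. When cells with any S-phase or G2/M marker UMI were left out, which kept 14.5% and 20.3% of cluster 0 and 29.6% and 35.2% of Neuroblast-like cells, 0 of the 3 calls remained, and Mcm6 stood at -0.24 ± 0.33. DESeq2 size factors in the same fit ended the call of Mcm3 (edgeR adjusted p = 0.0592).

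OPC-like cells differed from Oligodendrocyte-like cells, their mature progeny, in 15 genes that were higher (17.6% of all genes tested) and 4 that were lower (19.2%). All 6 MCM2-7 genes were higher, from 1.10 for Mcm4 to 2.94 for Mcm5. Dut stood at 102 and 60.3 CPM against 7.28 and 8.95 CPM (2.34 ± 0.34 SE), Mcm6 at 25.5 and 40.2 against 2.10 and 3.48 CPM (2.76 ± 0.48), Mcm2 at 16.98 and 22.3 against 1.26 and 2.11 CPM (2.71 ± 0.54) and Uhrf1 at 21.2 and 13.4 against 0.280 and 0.497 CPM (4.41 ± 0.76). These rest on few cells, 25 OPC-like cells in library 1 and 56 in library 2, with 4 and 10 UMIs for Mcm2 and 5 and 6 for Uhrf1. G2/M markers summed to 458 and 100 CPM in OPC-like and 18.1 and 19.03 CPM in Oligodendrocyte-like cells, and their part in the result was not tested. The 4 lower genes were Gins4 (-1.50 ± 0.30), Rpa1 (-1.64 ± 0.39), Rfc2 (-1.08 ± 0.26) and Rfc1 (-0.90 ± 0.21), which all persisted in Oligodendrocyte-like cells. In CPM the levels of Rfc1 lay close together, at 93.4 and 93.8 against 104 and 90.8 CPM. Those of Rpa1 lay further apart, at 21.2 and 13.4 against 25.3 and 30.3 CPM. With total counts, which moved the median of all genes by 0.85, 0 genes were lower and 25 were higher.

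Other genes of the pathway were read from 4 further lists. Against Neuroblast-like cells, 9 of 12 licensing and firing genes, 15 of 17 polymerase and fork genes, 8 of 9 nucleotide supply genes and 7 of 7 chromatin assembly genes were higher in S-phase-like cells, and 1 fork gene was lower. Of all genes tested, 22.0% were higher and 18.7% lower. Clspn, the fork adaptor claspin (6.40 ± 0.25), and Pclaf, a PCNA-binding factor (5.70 ± 0.18), had the smallest adjusted p of the fork genes. Between S-phase-like and G2/M-like cells, Dbf4, the activator of the Cdc7 kinase, was lower in S-phase-like cells (-2.72 ± 0.19), and so were Pclaf (-1.25 ± 0.12) and 7 further genes of these lists, while Dctd (1.60 ± 0.35) and Shmt1 (0.92 ± 0.30) were higher. There, 7.31% of all genes tested were lower and 4.26% higher. In RGL-like against Astrocyte-like cells 2 of 12, 5 of 17, 3 of 9 and 2 of 7 genes were higher and 0, 0, 1 and 1 lower, with Dnmt1, the maintenance methyltransferase, higher by 1.27 ± 0.19. The shares of all genes tested were 15.3% higher and 17.2% lower. In cluster 0 against Neuroblast-like cells 1, 1, 0 and 1 genes were higher and 0, 1, 1 and 0 lower (6.52% and 7.09% of all genes tested). In OPC-like against Oligodendrocyte-like cells 2, 3, 2 and 2 were higher and 0, 3, 1 and 1 lower (17.6% and 19.2% of all genes tested).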

How the data were processed

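The authors deposited raw UMI counts per gene and barcode in 1 unfiltered matrix (Cell Ranger 4.0.0, Scanpy 1.7.0 and mm10, per the submitters' processing notes). A barcode counted as a cell from 1000 UMIs and 500 genes upward, with no more than 20% mitochondrial UMIs, and Scrublet (expected rate 0.06, through scanpy 1.11.5) removed 226 and 252 doublets. Leiden clusters (resolution 1, 40 components, 15 neighbours) were named by the highest marker score (at least 3 markers in 25% of cells), except where the leading genes held more markers of another class (cluster 0). The sums of counts over each class and library entered 1 edgeR 4.0.16 fit (R 4.3.3) over 19 classes of at least 20 cells per library (235634 to 24976222 UMIs per sum): filterByExpr, TMM, library as a block, two-sided quasi-likelihood test, 18 residual degrees of freedom. The block holds library and genotype together. The p-values measure what is left after the block, the spread of the 2 libraries within classes, pooled over the 19 classes. They do not measure the spread between mice. CPM intervals are exact Poisson at 95%. Alternatives were DESeq2 1.42.0, other scalings, filters, clusterings and fits. The script was tested on simulated data. Promoters came from RefSeq and gene positions from GENCODE M21. Full statistics are given for up to 4 genes per direction with the smallest adjusted p in each comparison, and for persistence the 5 highest and 5 lowest medians; other members are given by level, and those of the added clusters were chosen after their values were seen. The genes, lists, markers and comparisons were chosen with earlier results of these data known.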

Additional observations from a re-analysis of the deposited data

Results flagged for a closer look

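The cells of 2 unnamed clusters entered no comparison, and their replication transcripts are given as values only. In unnamed cluster 17 (278 cells, led by Cst7, Cd52 and Lgals3) the 46 genes summed to 497 CPM (exact Poisson 95% interval 436 to 564), and in unnamed cluster 27 (66 cells, led by H2-Eb1, H2-Aa and H2-Ab1) to 969 CPM (885 to 1058). Both values lie in the range of the classes without division, 340 to 1163 CPM.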

How the results depend on the processing

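All 46 genes stayed higher in S-phase-like than in Neuroblast-like cells except Orc6 with no filter on low counts, and 40 to 44 genes stayed higher in S-phase-like cells than in every class without division. For S-phase-like against G2/M-like cells the number higher was 17 with total counts, 5 with no replicate block (no library term), 18 with only those 2 classes in the fit, 14 with DESeq2, and 39 higher with 0 lower with the 3 clusters added after seeing the data, where Rrm2 (0.20), Tyms (0.67), Dut (0.30) and Rrm1 (0.24) changed sign. For cluster 0 against Neuroblast-like cells the number higher was 7 at Leiden resolution 2 and 0 with marker-positive cells left out (Mcm6 -0.24 and Mcm3 -4.82 changed sign), and the number lower was 1 with DESeq2 size factors, 1 with no replicate block, 4 with 2 classes in the fit and 2 with DESeq2. For RGL-like against Astrocyte-like cells, 12 were higher with a 10% mitochondrial limit and 10 without marker-positive cells, and 1 was lower with total counts. For OPC-like against Oligodendrocyte-like cells, 25 were higher and 0 lower with total counts, and too few OPC-like cells remained for the fit without marker-positive cells. Genes persisting in at least 1 class numbered 4 at a 50% limit and 38 at a 10% limit, those persisting in at least 9 classes 0 and 11, and leaving out 1 library gave 20 to 20 and 3 to 4. With TMM-scaled CPM, added after seeing the data, 17 genes persisted in at least 1 class. Shares of cells without thinning were 100% in both libraries for S-phase-like, 94.9% and 95.5% for Neuroblast-like, 91.4% and 91.7% for RGL-like and 78.7% and 81.2% for Astrocyte-like cells, which gave 41.9% in library 1 with a 10% mitochondrial limit. Among single genes, 332 of 351 values kept direction and call. The causes were not tested. Few counts lie behind Orc1 (11 and 12 UMIs in S-phase-like cells) and behind the OPC-like class (25 and 56 cells). The Choroid plexus-like class held only 29 cells in library 1.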
